A study of Rattus norvegicus with 2 samples.

Results

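Transcribed ultraconserved regions were examined strand by strand in cultured rat neural stem cells exposed to the inhaled anaesthetic sevoflurane. The members were the 962 microarray probes named "uc." with an element number and a + or - sign, out of 24684 probes that are not controls. They stand for 481 elements, numbered between 1 and 483, and each element had 1 probe for the + strand and 1 for the - strand. A member probe had 1 spot per array, and 1 spot (uc.119- on the sevoflurane array) was left out because the scanner software flagged it as an outlier, so 961 members were usable.

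Ultraconserved elements are stretches of the genome that are identical, without gaps, in human, mouse and rat. Some lie in exons of genes for RNA-binding proteins, where they take part in alternative splicing that limits the amount of the protein, and many lie in introns or between genes near regulators of development, where several act as enhancers in the embryonic brain. RNA can be made from either strand of such an element. A probe for each strand therefore asks whether the element is transcribed in 1 orientation or in both. The orientation is given here as the probe names give it, and probe sequences and genome positions were not used here.

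There were 2 arrays of 1 colour (Cy3), 1 for each group, and no replicates. One array held total RNA of hippocampal neural stem cells kept in 2.4% sevoflurane for 6 h, and the other held RNA of cells kept in 0% sevoflurane (the control). In both groups the cells came from Sprague-Dawley rats at postnatal day 3, were grown without serum and with bFGF, were in passage 3 and, per the treatment protocol, went back to an incubator with 5% CO2 for 24 h. Other labels mention only 6 h, so the time of harvest is uncertain, and the labels do not settle whether an array holds 1 culture or a pool. Signals are background-corrected spot intensities, and a difference is sevoflurane minus control in log2 units after each array was set to its 75th percentile (a signal of 363 with sevoflurane and 692 in the control). The error given with a difference is that of the scanner software for the spots and leaves out any spread between cultures.

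All 10 neural stem cell markers examined were well above background on both arrays. Among them were Sox2, a stem cell transcription factor, at signals of 1993 (sevoflurane) and 6835 (control), and the filament gene Nes at 777 and 616. Of the 10, 2 were at least 2-fold higher in the sevoflurane sample (Nes at 1.27 and Msi1 at 1.40). Another 2 were at least 2-fold lower (Pax6 at -1.01 and Slc1a3 at -1.72). The median difference was -0.48, with Sox2 at -0.85. Over all probes well above background on both arrays, 32.8% were at least 2-fold higher and 12.3% at least 2-fold lower. Markers of other cells also differed between the arrays. At least 2-fold lower in the sevoflurane sample were 4 of 7 neuronal and 5 of 6 microglial markers, with median differences of -1.06 and -3.10. Summed signals were 18530 and 83477 for neuronal markers and 831 and 10391 for microglial markers. The sums given here are not scaled between the arrays, unlike the differences. All 5 red cell markers were at least 2-fold higher, with a median difference of 3.42 and summed signals of 48265 and 17173. All 3 measured mesenchymal markers were at least 2-fold higher as well, with a median difference of 2.58 and summed signals of 1004 and 682. Markers of astrocytes (2 higher and 1 lower of 5) and of the oligodendrocyte lineage (2 and 1 of 6) lay on both sides. Their summed signals were 204 and 949 for astrocytes and 1535 and 2555 for the oligodendrocyte lineage. After the intensity-dependent correction described below, 1 astrocyte marker was higher and 3 were lower, with a median of -1.20. For the oligodendrocyte lineage and for stem cells, 1 was higher and 1 lower. Of the others, 6 neuronal and 5 microglial markers were then lower, and 5 red cell and 3 mesenchymal markers higher. Every marker with a probe was well above background on both arrays, and some differed little, such as Rbfox3 at 0.09 and Hes1 at 0.11. The part of these markers in the values of ultraconserved probes was not tested. In RNA of a mixed culture, fewer cells of a type and less RNA per cell cannot be told apart. Each array had a scan day of its own, so the scan day and the exposure cannot be told apart either.

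Both strands were detected about equally often, and detection was far more frequent on the sevoflurane array. The software called 302 of 481 + probes (62.8%) and 296 of 480 - probes (61.7%) well above background on the sevoflurane array, against 142 (29.5%) and 139 (29.0%) on the control array. Over all usable probes the shares were 83.4% and 66.8%. Of the negative control spots, 1 of 153 on the sevoflurane array and 0 of 153 on the control array were called in this way. In total 260 of 961 members (27.1%) passed this call on both arrays, 338 (35.2%) with sevoflurane alone, 21 (2.19%) in the control alone and 342 (35.6%) on neither. The corresponding background over all probes was 65.2%, 18.2%, 1.61% and 15%. Non-coding probes of other kinds were called on both arrays in 56.7% of cases and only on the sevoflurane array in 21.5%. Most members were dim. Their median signal was 15.0 with sevoflurane and 2.96 in the control, where 404 of 962 spots did not differ significantly from background by the software's own call, against 79 with sevoflurane.

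Of the 480 elements with both strands usable, both were well above background for 205 on the sevoflurane array, only the + strand for 96, only the - strand for 91 and neither for 88. On the control array these numbers were 62, 80, 77 and 261. The probe for 1 strand was more often measured where the probe for the other strand was. Here "measured" means well above background on both arrays. The - probe was measured in 57 of 129 elements with a measured + probe (44.2%) and in 74 of 351 elements without one (21.1%). Read the other way, the + probe was measured in 43.5% of elements with a measured - probe and in 20.6% of the rest. At 78 elements neither strand was detected on either array.

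Among the 260 measured members, + and - probes had nearly the same median difference and counts past 2-fold. The median was 1.43 for 129 + probes and 1.43 for 131 - probes, and 78 + and 79 - probes were at least 2-fold higher in the sevoflurane sample, against 7 and 8 that were at least 2-fold lower. The lower quartile was 0.51 for + and 0.093 for - probes, and 107 and 101 were above 0. Together 157 (60.4%) were higher and 15 (5.77%) lower, where the background over all 16047 measured probes was 32.8% higher and 12.3% lower with a median of 0.36. Among non-coding probes of other kinds, 42.5% passed 2-fold upward and 13.4% downward, and the median difference was 0.71. Probes with XR names came close to the members, at 60.3% and 2.88% (median 1.22). Those with MRAK names did not, at 35.3% and 20.7% (median 0.28). A higher share of this size was thus not particular to members. The counts of members moved with the scaling and with the level. After a correction that removes the trend of the difference with brightness (the intensity-dependent correction), 70 members were higher and 38 lower (background 17.1% and 17.2%) with a median of 0.15, and after quantile normalization 69 were higher and 57 lower (background 15.6% and 21.6%) with a median of 0.02. With median scaling, 78 were higher and 57 lower (background 12.5% and 41%). With the percentile taken over probes detected on both arrays, the counts were 170 and 13 (36.1% and 10.1%), and after normexp background correction 131 and 7 (26.9% and 8.97%). The deposited table gave 69 members higher and 55 lower (15.6% and 21.2%). Counting every spot that was significantly above background, 412 of 547 members were higher and 21 lower (43.7% and 10.5%), and with no filter 817 of 961 and 22 (53.9% and 8.58%). At 1.5-fold the counts were 185 and 31 (43.2% and 20.8%) and at 4-fold 84 and 3 (13.9% and 2.91%). Of the measured members, 208 (80%) lay in the dimmest 4 of 10 equal groups of measured probes by level. In those groups 67.8% of members and 56.8% of all probes were at least 2-fold higher, with medians of 1.56 and 1.24. The 32 members in the brighter 5 groups had a median of -0.19, with 6 higher and 6 lower, against -0.08 over all probes there (14.5% and 16.6%).

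A smaller set did not depend on the scaling. In all 7 scalings 59 measured members (22.7%) were at least 2-fold higher and 6 (2.31%) at least 2-fold lower, against a background of 9.06% and 7.29% of 15897 probes. The 59 divided into 28 + and 31 - probes, and the 6 into 3 and 3. Within the dimmest 4 level groups the higher share was 22.1% of members and 14.9% of all probes. The sign of the difference changed between scalings for 105 of 260 measured members.

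The highest difference of a measured member was that of uc.243+, which read 11459 with sevoflurane and 30.5 in the control, a difference of 9.48 ± 0.22 (7.89 after normexp). The spot's local background on the sevoflurane array carried an outlier flag, and the opposite strand, uc.243-, gave only 15.7 and 7.49. Next came uc.19-, at 1315 and 29.3 (6.42 ± 0.22), and uc.247+, at 172 and 11.1 (4.89 ± 0.31, but 2.55 after normexp). The probe uc.330- read 694 and 61.1 (4.44 ± 0.21), and uc.324+ read 329 and 33.8 (4.21 ± 0.22). The other 5 of the 10 highest were uc.224-, uc.360+, uc.48+, uc.378- and uc.335+, between 3.73 and 4.25, and all 10 were at least 2-fold higher in all 7 scalings. Choosing the highest favours this, and median scaling and the percentile over detected probes only shift all differences by 1 value. Each of the 10 rests on 1 spot per array, and no second spot of the same probe was there to compare. Among probes with at least 3 spots, 14 of 25891 spots on the sevoflurane array lay at least 4 log2 units above their copies, of which 9 were flagged.

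The lowest difference was that of uc.34+, with signals of 309 (sevoflurane) and 4238 (control), a difference of -2.85 ± 0.20 and of -2.53 after normexp. Its opposite strand uc.34- read 62.6 and 70.1, at 0.77. The probe uc.479+ read 43.3 and 339 (-2.04 ± 0.22), uc.367+ 104 and 807 (-2.02 ± 0.21), and uc.255- 91.3 and 626 (-1.85 ± 0.21). These 4 were clear of background on both arrays and, with uc.188- (149 and 729, at -1.36) and uc.408- (2006 and 9688, at -1.34), are the 6 members at least 2-fold lower in all scalings. The remaining 4 of the 10 lowest were uc.225+, uc.176+, uc.122- and uc.77-, between -1.74 and -1.28. Among these, uc.176+ and uc.122-, with sevoflurane signals of 14.7 and 13.3, were at 0.06 and 0.22 after normexp.

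The strands of 1 element often differed in how far the arrays diverged. For an element with both probes measured, the strand gap is the difference of the + probe minus the difference of the - probe. No probe's signal is thus set directly against another's, but the gap is not free of level. The median difference over all measured probes was 1.73 in the dimmest of 10 level groups and 0.17 in the brightest. At uc.472, the gap of 1.80 became -0.07 after the intensity-dependent correction. Of 57 elements with both probes measured, 39 (68.4%) had a gap of at least 2-fold. The + probe was relatively higher in the sevoflurane sample in 22 of them and the - probe in 17. The median gap was 0.12, the median absolute gap 1.70 and the SD over elements 2.32, while the median error of a gap was 0.33. For comparison, different probes of 1 gene differed by at least 2-fold in 33 of 240 genes (13.8%), with a median absolute gap of 0.12. With both probes in the dimmer 5 level groups, the shares were 21 of 36 elements (58.3%) and 14 of 64 genes (21.9%). Across the 57 elements the differences of the + and - probes had a Pearson correlation of -0.16 (Spearman -0.13). This is a description over points that share both arrays. The gap count was 33 after the intensity-dependent correction, 35 after quantile normalization and 28 after normexp. Of the 39 gaps, 29, 30 and 28 stayed at least 2-fold in the same direction in these scalings, in that order. The sign of the gap was kept in 45, 44 and 51 of the 57 elements. In all 7 scalings 19 elements kept a gap of at least 2-fold and of 1 sign, 11 with the + and 8 with the - probe higher. Median scaling and the percentile over detected probes cannot change a gap, since each subtracts 1 value per array.

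The element with the widest gap was uc.19, at -5.78 ± 0.32. Its - probe, described above, was far higher in the sevoflurane sample, whereas uc.19+ read 43.4 and 53.0, a difference of 0.64. At uc.360 the gap was 5.22 ± 0.41: the + probe read 87.3 and 9.23 (4.17) and the - probe 142 and 562 (-1.05). At uc.378 it was -4.87 ± 0.40, from signals of 15.2 and 63.8 for + and of 122 and 17.6 for -, although the + difference of -1.14 became 0.10 after normexp. At uc.77 it was 4.23 ± 0.30, with 157 and 38.9 for + (2.94) and 54.4 and 253 for - (-1.28). Together with uc.408 (1.02 for + and -1.34 for -), these last 3 are the only measured elements whose strands were at least 2-fold apart from 0 in opposite directions, and none of the 4 was so in all scalings.

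In several further wide gaps 1 strand was much higher and the other within 2-fold in the 75th percentile scaling. For uc.324 the - probe read 28.9 and 61.9 (-0.17), and for uc.330 the + probe read 17.8 and 29.4 (0.20), giving gaps of 4.38 ± 0.32 and -4.23 ± 0.36. After quantile normalization the strands near 0 were lower, with uc.324- at -1.53, uc.330+ at -1.85, uc.377+ at -1.37 and uc.186+ at -2.03. Their opposite strands were then between 1.59 and 4.04, so in that scaling these elements also had strands past 2-fold in opposite directions. For uc.377, whose number adjoins that of uc.378, the same orientation held: + read 49.1 and 134 (-0.52), - read 48.6 and 9.71 (3.25), and the gap was -3.77 ± 0.41. At uc.34, where the + strand was the lower one, the gap was -3.62 ± 0.30. It was 2.97 ± 0.31 at uc.419, -2.91 ± 0.33 at uc.186, 2.83 ± 0.39 at uc.48 and -2.80 ± 0.30 at uc.456. At uc.419 the + probe read 100.1 and 24.3 while the - probe read 464 and 883, a difference of 0.0012. At uc.186 the - probe read 612 and 207 and the + probe 22.4 and 56.9 (-0.42). All 12 elements with the widest gaps kept a gap of at least 2-fold in the same direction in all 7 scalings. Choosing the widest gaps favours this, and median scaling and the percentile over detected probes could not have changed these gaps. The deposited table can lie close to quantile normalization, with a gap of -6.29 in both at uc.19.

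In 16 of the 57 elements both strands were at least 2-fold higher, and in 0 both were lower. For comparison, 60.4% of all measured members were higher. Among measured probes of consecutive element numbers, both were higher in 34 of 83 pairs on the same strand and 28 of 87 on opposite strands. The share within elements was thus no larger than between different elements. After the intensity-dependent correction and after quantile normalization, 3 elements had both strands at least 2-fold higher. These were uc.246, uc.293 and uc.462, which were so in all 7 scalings. For uc.293, + read 96.7 and 39.1 (2.24 ± 0.22) and - read 147 and 64.6 (2.11 ± 0.21), a gap of 0.12 ± 0.30. For uc.462, + read 213 and 93.6 (2.12) and - read 70.8 and 23.4 (2.53). For uc.246, + read 60.0 and 18.6 (2.62) and - read 284 and 124 (2.12). The other elements with the smallest gaps were uc.435, uc.90, uc.40, uc.420 and uc.299, with gaps between -0.33 and 0.16. Of these uc.420 was bright on both strands, + at 508 and 1086 and - at 2166 and 4029, with differences of -0.17 and 0.04. At uc.435, with signals between 11.8 and 15.4 on both strands and arrays, the gap error of 0.54 exceeds the gap of 0.12.

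At 56 elements 1 strand was measured and the other was below background on both arrays, 26 with the + strand and 30 with the - strand measured. By mean level the first of these was uc.144-, at 846 and 1057 (0.61 ± 0.20), while uc.144+ read 6.98 and 1.90. Next were uc.298-, at 726 and 236 (2.55 ± 0.20), with uc.298+ at 9.19 and 2.13, and uc.49-, at 440 and 330 (1.34 ± 0.20), with uc.49+ at 9.69 and 1.77. In these 3 elements, only the - probe gave a signal that both arrays could measure. Among the 10 with the highest level, uc.479+ alone was at least 2-fold lower, and uc.479- read 7.34 and 1.73. The other 6 were uc.101-, uc.308-, uc.136+, uc.113+, uc.61- and uc.280+, with differences between -0.89 and 2.02. A probe below background gives no order between strands, since probes also differ in how well they bind.

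For the 338 members seen only on the sevoflurane array a lower bound was computed against the dim limit of the control array (the lowest signal called well above background there, 7.22, or the probe's own where higher), after scaling. All were at least 2-fold higher by that bound, which the selection and the scaling largely fix, with a median of 4.57-fold, and 211 of them had a signal under 20. At least 10-fold was reached by 23. The strongest was uc.432-, with signals of 1739 and 5.97, at least 459-fold higher. Then came uc.314+ at 1211 and 5.26 (at least 319-fold), uc.473- at 1029 and 2.92 (at least 272-fold), uc.447+ at 968 and 2.01 (at least 255-fold) and uc.28- at 529 and 5.41 (at least 140-fold, with an outlier flag on its local background). The opposite strands of these 5 elements gave sevoflurane signals of 16.4 for uc.432+, 30.1 for uc.314-, 44.4 for uc.473+, 21.5 for uc.447- and 21.8 for uc.28+. The bounds hold for the 75th percentile scaling alone: the differences of these 5 probes were between 6.23 and 8.16 after quantile normalization and between 3.84 and 5.68 after normexp. Differences of at least 6 log2 units among probes detected on the sevoflurane array made up 1.25% of members, 0.570% of other probes with 1 spot and 0.935% of probes with at least 3 spots. Of the 21 members seen only on the control array, 4 reached a 2-fold bound. The strongest of them was uc.165+, at 9.17 and 55.3, at least 3.16-fold lower in the sevoflurane sample, and the others were uc.157+, uc.270- and uc.183-. The next, uc.217+, had a bound of 1.91-fold. After normexp the differences of these 5 probes were above 0, between 0.21 and 0.39.

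The members with the highest mean level were mostly - strand probes with differences close to 0 or slightly negative. The - probe of uc.46 read 5155 and 8861 (0.15 ± 0.20), that of uc.141 read 2253 and 7339 (-0.77 ± 0.20) and that of uc.268 read 1312 and 4570 (-0.87 ± 0.20). The + probe of uc.154 read 1818 and 6614 (-0.93 ± 0.20). With uc.408-, uc.420-, uc.45-, uc.50-, uc.455- and uc.471+, these make up the 10 highest, of which uc.408- alone was at least 2-fold lower here (uc.154+ was at -1.07 after normexp, and median scaling put all but uc.46- past 2-fold lower). Their opposite strands, where measured, had higher differences, as at uc.46+ (81.5 and 27.0, at 2.53) and uc.154- (45.8 and 28.6, at 1.61), except at uc.420. The 10 were chosen for brightness, and dimmer probes read higher in this scaling, so the choice itself favours this order. After quantile normalization this order turned at uc.455 and uc.471 too, with strand gaps of -0.17 and 0.31. Genes listed from general knowledge as holding or flanking ultraconserved elements were set beside these. Of 17 measured genes for RNA-binding and splicing proteins, 0 were at least 2-fold higher and 1 lower (Luc7l3, at -1.05). Their median was -0.52, against 0.36 over all measured probes. These genes were mostly bright, and over the brighter measured probes the median was -0.08 (14.5% higher and 16.6% lower). The splicing factor gene Srsf1 was at -0.56, Hnrnpk at -0.48 and Pcbp2 at 0.39. After the intensity-dependent correction 0 of the 17 genes were higher and 2 lower. Their median was again -0.52, against 0.009 over all measured probes. Of 17 measured developmental regulators and receptor genes, 8 were at least 2-fold lower and 0 higher, with a median of -0.80. Of all measured probes 12.3% were lower and 32.8% higher, and of the brighter ones 16.6% and 14.5%. After the intensity-dependent correction 8 of these 17 regulators and receptor genes were lower and 1 (Foxp1, at 1.07) higher. Among them was the homeobox gene Pbx3, at -1.61.

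Elements studied elsewhere were mostly near background. Of the 30 probes for 15 such elements, 4 were measured on both arrays, where the share was 27.1% of all members and 65.2% of all probes. They include uc.173, studied for its part in neuronal death and in the gut lining, whose + probe read 548 and 1185 (-0.18 ± 0.20) and whose - probe read 34.7 and 19.7 (1.75 ± 0.26, but 0.26 after the intensity-dependent correction). For uc.338, which lies in the gene of the RNA-binding protein PCBP2, the - probe read 52.6 and 9.62 (3.38 ± 0.34, and 1.46 after normexp), while uc.338+ read 17.8 and 8.50 and was called only on the sevoflurane array. For uc.63 the - probe read 111 and 71.4 (1.56 ± 0.21) and the + probe 26.4 and 4.28. The elements uc.160 and uc.283, known for silencing by DNA methylation in cancer, had + probes that read 31.3 and 1.71 (uc.160+) and 24.3 and 2.58 (uc.283+), both called with sevoflurane alone. The enhancer elements uc.248, uc.329, uc.467 and uc.482, which have been deleted in mice, had 8 probes, of which 7 were called with sevoflurane alone. That call was given to 35.2% of all members and 18.2% of all probes. Signals of the 7 were between 13.2 and 26.0 against 1.74 to 4.91, near background, in the control. Their differences lay between 1.08 and 1.51 after normexp and between 0.29 and 1.44 in the deposited table. The probe uc.248+ was called on neither array. The probe uc.349- was called on the control array only, at 4.03 and 18.2. The other probes of this list, for uc.8, uc.73, uc.346, uc.416 and uc.454, were called with sevoflurane alone or on neither array.

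Elements are numbered in their order along the human chromosomes, so consecutive numbers are often, but not always, neighbours in the genome. Where consecutive numbers were measured on the same strand, their differences correlated at 0.33 over 83 pairs (0.26 after the intensity-dependent correction), against -0.01 over 87 pairs on opposite strands (-0.02). Elements recur in these pairs, which share both arrays. A gap of at least 2-fold was found in 53.0% and 62.1% of these pairs. A measured probe was followed by a measured probe of the next number in 32.3% of cases on the same strand and 33.9% on the opposite strand, against 24.9% and 24.3% after a probe that was not measured. The longest run of consecutive measured probes was on the - strand, from uc.45 to uc.50, where differences ranged from -0.80 at uc.50- to 2.21 at uc.47- (920 and 378). On the + strand uc.45 to uc.48 formed a run of 4, with differences from 1.69 to 3.79 (0.46 to 2.33 after the correction), and so did uc.417 to uc.420, with differences from -0.17 to 2.97.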

How the data were processed

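The deposited scanner files give the intensity of each spot, on a linear scale. They come from Agilent Feature Extraction 11.0.1.1, per the submitters' processing notes. The processed signal is background-corrected, with small stand-in values for spots not above background, and is not scaled between arrays. A deposited value table was read as log2 intensities from its values, and its normalization is not stated in the sources used.

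Control spots and spots with a non-uniformity or population outlier flag were left out. Processed signals were taken to log2 and spots of a probe averaged. Each array's 75th percentile over probes was subtracted, and at least 2-fold (1 log2 unit) was the size rule. A probe was measured when over 50% of its usable spots were well above background on both arrays. The 6 alternative scalings were quantile normalization, median scaling, the 75th percentile over probes detected on both arrays, lowess on level (span 0.3), limma 3.58.1 normexp with offset 50 on median spot and background signals (mean spot signals were not used here), and the deposited table. With 1 array a group there is no test and no p-value, and the number of arrays limits the precision. Calculations used Python 3.11.15. The scalings other than normexp and the deposited table were tried on simulated data with a constant shift between arrays. That simulation had no trend of the difference with level and no background floor, unlike these arrays. Gene names came from RefSeq accessions matched to a GRCr8 gene table (14248 of 15291 usable mRNA probes).

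Members and gene lists were chosen with earlier results of these data known. The elements named were the 12 widest and 6 narrowest strand gaps, the 10 brightest elements with 1 strand measured, the 10 highest, 10 lowest and 10 brightest measured probes, the 5 strongest bounds in each direction and 15 elements known from the literature. Elements outside that rule were named after their values were seen: the opposite strands of named probes, uc.246, uc.462, uc.47 and the runs of consecutive numbers.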

Additional observations from a re-analysis of the deposited data

How the results depend on the processing

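No paired analysis was possible because each group has 1 array. Members at least 2-fold higher numbered 157 as reported, 69 after quantile normalization, 78 after median scaling, 70 after the intensity-dependent correction, 69 in the deposited table, 412 with spots only significantly above background, 6 among the brighter measured probes, 817 with no filter and 84 at 4-fold. Members at least 2-fold lower numbered 15, and 57, 57, 38 and 55 in those 4 scalings, 7 after normexp, 6 among brighter probes, 31 at 1.5-fold and 3 at 4-fold. The median difference of 1.43 was 0.020, 0.35, 0.15 and 0.016 in the same 4 scalings, 1.57 with the percentile over detected probes, 1.004 after normexp, 2.23 with significant spots, 2.62 with no filter and -0.19 among brighter probes. Of the members past 2-fold, 91.3% were higher, but 54.8% after quantile normalization, 57.8% after median scaling, 64.8% after the intensity-dependent correction, 55.6% in the deposited table and 50% among brighter probes. The median strand gap of 0.12 was -0.061 after normexp and -0.20 among brighter probes, where 1 element was left. Elements with a gap of at least 2-fold numbered 39, 118 with significant spots, 0 among brighter probes, 294 with no filter and 23 at 4-fold. With significant spots, 547 members were detected on both arrays and 11 only on the control array, 178 elements had both strands measured and 30 had 1 strand measured. After normexp uc.122-, uc.176+ and uc.378+ were at 0.22, 0.063 and 0.10, and uc.90+ was at -0.17 with quantile normalization, -0.17 in the deposited table and -0.10 after the intensity-dependent correction. The cause was not tested. Signals near background limit most members.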
